A study of Danio rerio with 50 samples.

Results

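The 7 genes described here encode the odour transduction machinery of ciliated olfactory sensory neurons (OSNs) of the zebrafish. They are gnal, gng13b, adcy3b, CNGA2_(1_of_2), cnga4, ano2 and ompb, taken by name from the 29033 genes of the deposited count tables for their known function and not for their levels. In vertebrate ciliated OSNs an odorant receptor (OR) activates the olfactory G protein, whose alpha subunit is the product of gnal and whose beta and gamma subunits in the mouse are Gnb1 and Gng13. The alpha subunit activates adenylyl cyclase 3, and the cyclic AMP it makes opens a cyclic nucleotide-gated (CNG) channel built from CNGA2, CNGA4 and a CNGB1 subunit. Calcium entering through that channel opens the chloride channel ANO2, which amplifies the receptor current. Olfactory marker protein (OMP) is a small cytosolic protein abundant in mature OSNs. The tables name each gene with a symbol only, and no length is given, so that levels are compared between cells and not between genes.

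RNA-seq data were collected from 47 single OSNs and 3 bulk libraries of Tu/TLF zebrafish embryos at 48 hours post fertilization. The single cells carried the zOMP:RFP transgene, in which the zebrafish omp promoter drives a membrane-bound RFP, and were sorted by fluorescence from dissected olfactory pits of pooled embryos, captured on a Fluidigm C1 chip and amplified with a SMARTer kit. Spike-in RNA was the Fluidigm set in 14 cells and the ERCC set in 33 cells, which were treated as the study's 2 separate C1 captures. The study's methods describe the bulk libraries as OSNs sorted for OMP:RFP together with citrine, which was driven through UAS by an or111-7:IRES:GAL4 transgene that reports a clade A receptor, whereas the labels call them OMP positive bulk cells. All groups carry omp-driven RFP, so the sort selected for activity of an omp promoter, and ompb is of that gene family.

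Cells were assigned to classes by genes outside the set of 7. Those with gap43 or gng8, markers of immature OSNs, at 20 CPM (counts scaled to the total of the library) or more formed the immature class of 5 cells. Of the other 42 cells, 13 had no OR at 10 CPM or more, and 29 had an OR from clade A (9 cells), clade B (10) or clade C (10). The margins of these rules were wide. The higher of gap43 and gng8 was at least 219.7 CPM in the immature class and at most 12.7 CPM elsewhere, and the leading OR was at least 55.5 CPM in OR cells and at most 4.72 CPM in cells without an OR. The study had clustered its cells on the 7 genes, as markers of mature OSNs, together with gap43 and gng8. It also called 5 cells immature, in part for low levels of the mature markers. Low levels of the 7 genes in the immature class are therefore not independent of the study's own result. A cell held between 6951519 and 30192554 counts and a bulk library between 2651985 and 6250589. Median totals were 19774693 counts in immature cells, 17763581 in cells without an OR and 18527450 in OR cells, and no pair of cells held identical counts.

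A gene was called detected in a cell at 100 counts, the level of the study's own filter. By this limit, ompb was detected in 38 of the 42 cells outside the immature class, gng13b and gnal in 37 each, cnga4 in 36, ano2 in 25, CNGA2_(1_of_2) in 24 and adcy3b in 16. Over the 7886 genes that reached 100 counts in at least 3 of the 47 cells, the median was 6 of 42 cells. The 7 genes therefore fell into a set of 4 found in most cells and a set of 3 with frequent dropout. Dropout means here that many cells had few or no reads of a gene abundant in others. A cell that did not express a gene cannot be told apart from one whose transcripts were lost in capture or amplification. The study warns of such missed transcripts. A gene that a cell is said to lack is one under 100 counts. When every cell was thinned to 6951519 counts, the numbers became 38, 37, 37, 34, 22, 22 and 15 in the same order of genes. The limit falls within a wide gap for CNGA2_(1_of_2), whose lowest detected cell had 11.2 CPM and whose highest undetected cell had 1.59 CPM. It falls in no such gap for cnga4 (8.04 and 5.71 CPM), ano2 (6.17 and 3.97 CPM) or adcy3b (6.70 and 4.65 CPM), where values grade into the undetected cells. At 1 count all but ano2 and adcy3b would be detected in all 42 cells, including a cell at 0.243 CPM of gng13b, so reads of 1 to 99 counts were not read as expression. A count of 0 allows up to 3 counts, which is 0.432 CPM in the shallowest cell.

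**Figure D1:**
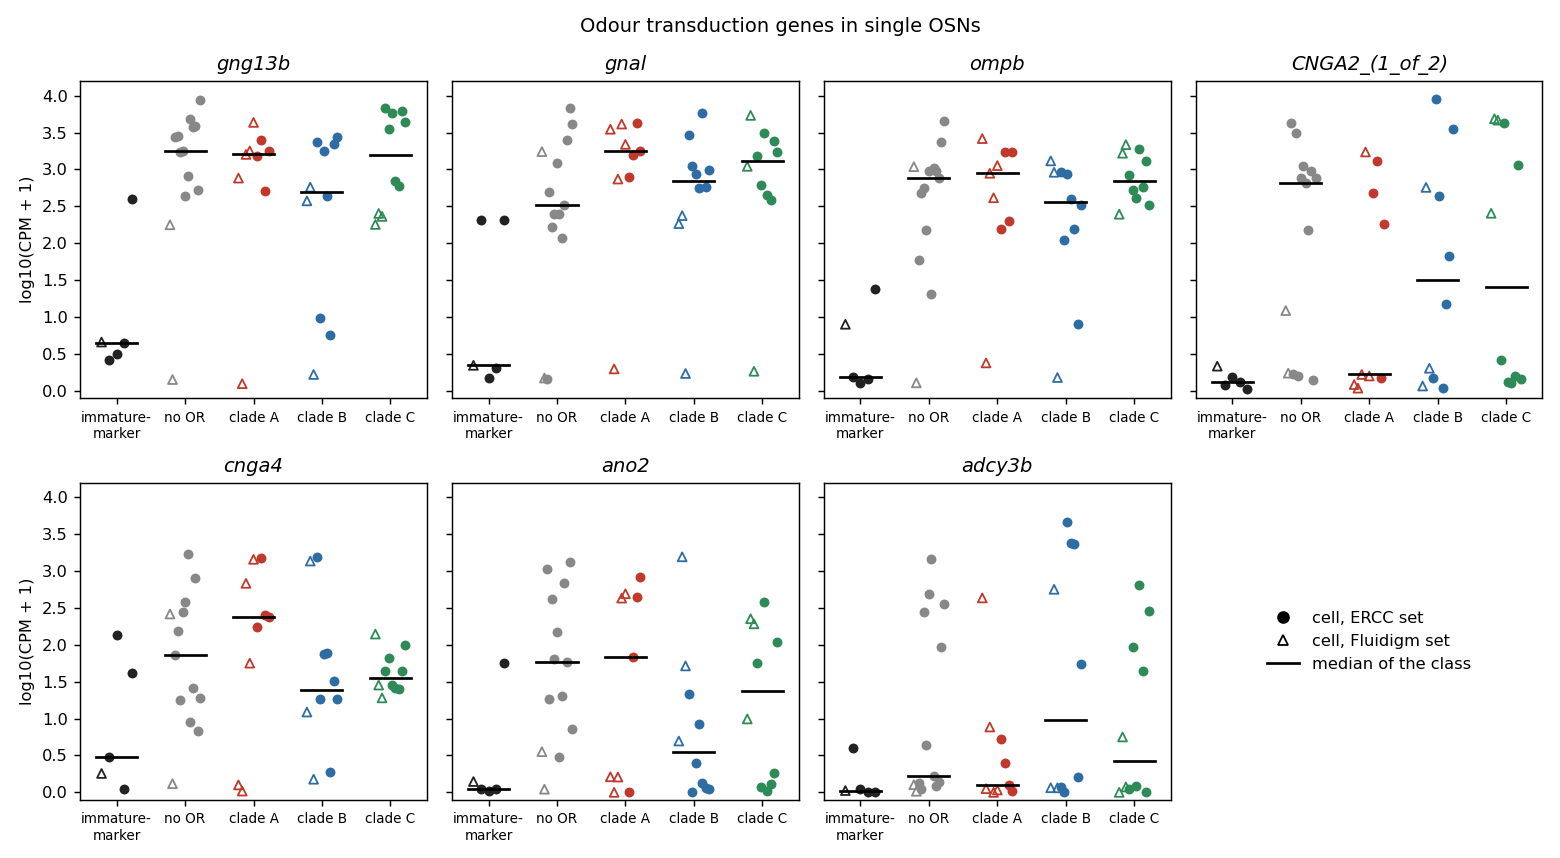
Level of each of the 7 genes, as log10(CPM + 1), in 5 immature-marker cells, 13 cells without an OR and the clade A, B and C cells. Each point is 1 cell, filled for the ERCC set and open for the Fluidigm set, and lines mark class medians. For CNGA2_(1_of_2), ano2 and adcy3b the points run from near 0 up to higher levels in each class other than the immature one, where CNGA2_(1_of_2) and adcy3b did not exceed 1.15 and 2.98 CPM.

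gnal and gng13b encode the G protein subunits next to the receptor. In the 5 immature cells gnal was at 207, 203, 1.21, 1.01 and 0.495 CPM. Its lowest, median and highest values were 0.439, 334 and 6854 CPM in cells without an OR and 0.709, 1103 and 5766 CPM in cells with an OR. Most neurons outside the immature class thus held gnal well above the near-zero level, and 25 of the 29 OR cells exceeded every immature cell. gng13b was at 403, 3.56, 3.48, 2.17 and 1.62 CPM in the immature cells. It ran between 0.415 and 8665 CPM with a median of 1806 CPM in cells without an OR, and between 0.243 and 6794 CPM with a median of 1504 CPM in OR cells. Only 1 immature cell, s23573, lay within the detected range of gng13b, and 21 of the 29 OR cells lay above it. The 2 subunits were detected together in 35 of the 42 cells outside the immature class, and each was detected without the other in 2. The cells without gnal despite gng13b were s23544, which had no OR and 0.439 CPM of gnal, and s20595 of clade C with 0.832 CPM, while both had CNGA2_(1_of_2), at 4258 and 4669 CPM.

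adcy3b encodes an adenylyl cyclase 3, the enzyme that produces cyclic AMP, and was the gene with the most dropout. It did not exceed 2.98 CPM in any immature cell. It reached 1446 CPM in cells without an OR, where it was detected in 5 of 13, and 4582 CPM in OR cells, where it was detected in 11 of 29. The medians of 0.688 CPM in cells without an OR and 0.637 CPM in OR cells therefore describe cells in which it was under 100 counts. All 16 cells with adcy3b also had gnal and ompb, which were detected in 37 and 38 of all 42 cells. The highest adcy3b levels were in clade B, where 3 cells of the ERCC set had 4582, 2391 and 2316 CPM, whereas no clade A cell exceeded 433 CPM and no clade C cell 654 CPM. The other adenylyl cyclase 3 gene in the tables, ADCY3_(2_of_2), was not detected in any of the 42 cells.

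CNGA2_(1_of_2) and cnga4 encode subunits of the CNG channel. All 5 immature cells had CNGA2_(1_of_2) at 1.15 CPM or less. Cells without an OR ran between 0.404 and 4258 CPM with a median of 645 CPM, and cells with an OR between 0.0811 and 9042 CPM with a median of 14.1 CPM. The lower median of the OR cells reflected detection in 15 of 29, against 9 of 13 cells without an OR. Among cells in which the gene was detected, the medians were 772 CPM without an OR and 1159 CPM with an OR. cnga4 was at 135, 41.1, 1.97, 0.805 and 0.126 CPM in the immature cells. Its median was 72.1 CPM in cells without an OR and 43.5 CPM in OR cells, with highest values of 1710 and 1569 CPM. Both subunits were detected in 23 of the 42 cells outside the immature class, cnga4 without CNGA2_(1_of_2) in 13, CNGA2_(1_of_2) without cnga4 in 1 and neither in 5. Thus all but 1 of the 24 cells with CNGA2_(1_of_2) had cnga4, whereas cnga4, detected in 36 of the 42 cells, was often present without CNGA2_(1_of_2).

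ano2, the gene of the chloride channel, was detected in 1 immature cell, s23573, at 55.8 CPM, and the other 4 had at most 0.402 CPM. Its lowest, median and highest values were 0.104, 57.5 and 1333 CPM in cells without an OR, where it was detected in 10 of 13. In OR cells they were 0, 7.33 and 1566 CPM, with detection in 15 of 29. The spike-in sets went opposite ways here. In the Fluidigm set ano2 was detected in 0 of 2 cells without an OR and 7 of 11 OR cells, against 10 of 11 and 8 of 18 in the ERCC set. Of the 2 Fluidigm cells, 1 was s20534, in which none of the 7 genes was detected. Of the 25 cells with ano2, 23 also had a CNG subunit, and all but 5 of the 42 cells had one. ano2 and adcy3b were found together in 7 cells, ano2 without adcy3b in 18 and adcy3b without ano2 in 9. Neither was found in 8.

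ompb was at 22.96, 6.96, 0.556, 0.443 and 0.266 CPM in the immature cells. Its lowest, median and highest values were 0.277, 758 and 4565 CPM in cells without an OR, and 0.507, 582 and 2624 CPM in OR cells. Although every cell had been sorted for omp-driven RFP, 26 of the 29 OR cells and 11 of the 13 cells without an OR exceeded all 5 immature cells. The paralogue ompa was detected in 15 of the 42 cells, with a highest level of 4176 CPM, and in no immature cell, where its highest level was 0.569 CPM.

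Joint detection was counted as the number of the 7 genes at 100 counts in a cell. The 5 immature cells had 0, 1, 1, 1 and 5 of them. Cells without an OR had a median of 6 and OR cells a median of 5. In all, 34 of the 42 cells outside the immature class had at least 5, made up of 12 of 13 cells without an OR and 22 of 29 OR cells. These classes differ in spike-in set, since 11 of 13 cells without an OR but only 18 of 29 OR cells were of the ERCC set. Class and set are therefore mixed in these numbers. All 7 were found in 4 cells, namely s23553, s23561 and s23575 without an OR and s20556 of clade B. No cell of the 47 had 2 or 3 of the genes. The 42 cells held 16 different combinations of detected genes. The most frequent, in 8 cells, lacked only adcy3b, and the next, in 7 cells, lacked adcy3b and CNGA2_(1_of_2). gng13b, gnal and ompb were detected together in 34 of the 42 cells.

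**Figure D2:**
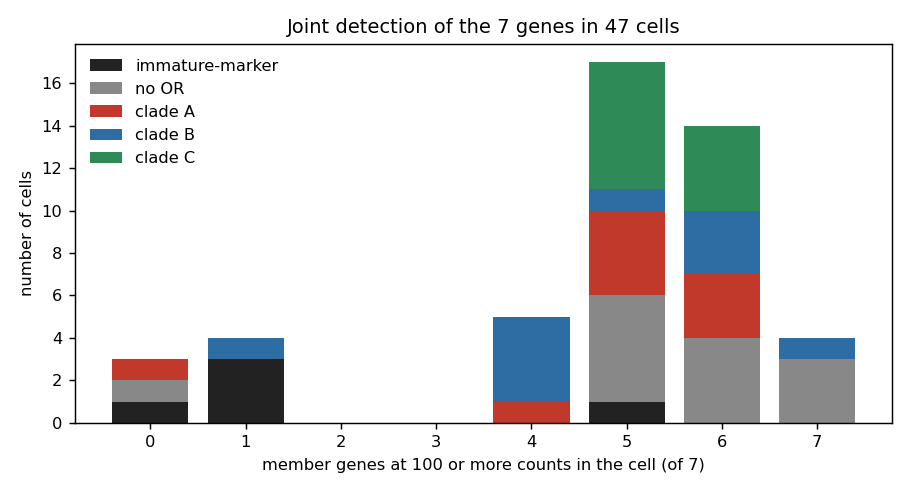
Number of cells (y axis) by the number of the 7 genes at 100 or more counts (x axis), stacked by cell class. Most cells had 5 or 6 genes, no cell had 2 or 3, and the cells with 0 or 1 were 4 immature-marker cells and 3 others.

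Although the genes were often present together, their levels were not closely related from cell to cell. Over the 42 cells, Spearman's rho between the log10(CPM + 1) values of 2 members ran from -0.10 to 0.37 with a median of 0.14, and was positive for 17 of 21 pairs. gnal and ompb had the highest value. Without the 3 cells described next, the range was -0.22 to 0.22 with a median of 0.00, and 10 of 21 pairs were positive. The 42 points come from 2 spike-in sets and differ in depth, and values under 100 counts entered the ranks.

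**Figure D3:**
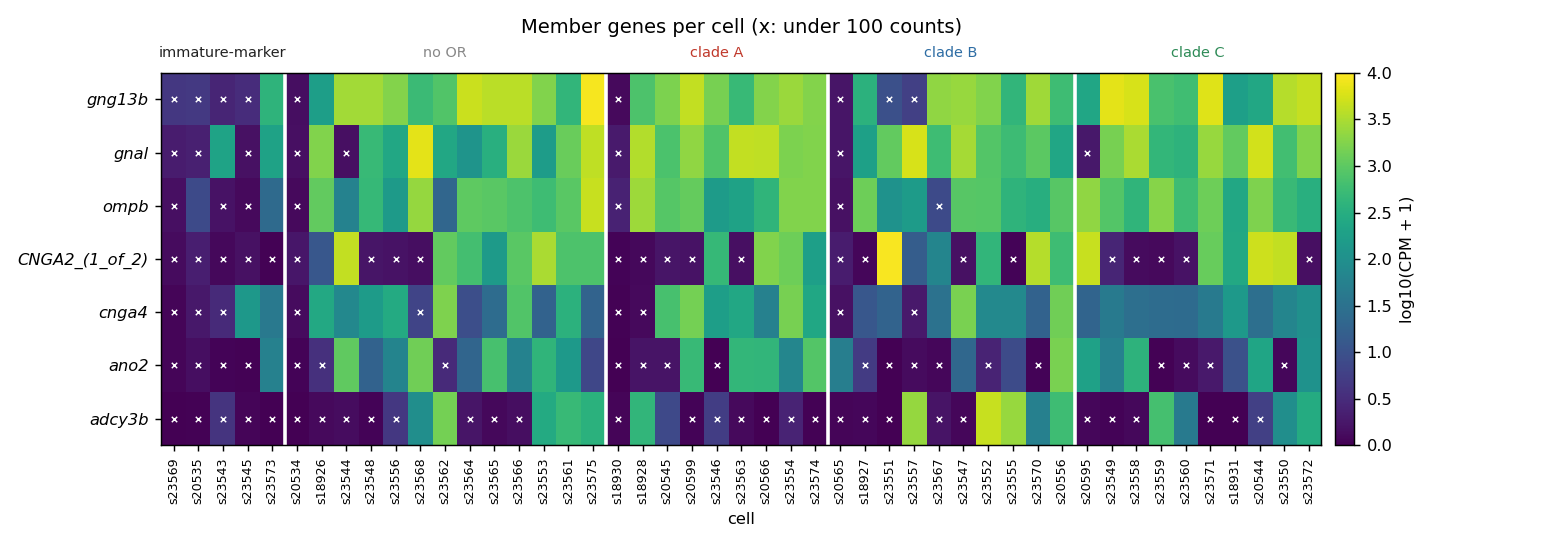
Heat map of the 7 genes (rows) in the 47 cells (columns), coloured by log10(CPM + 1), with classes side by side and cells ordered within a class by the number of genes detected. White crosses mark fewer than 100 counts. The first cell of the classes without an OR, clade A and clade B lacks nearly all 7 genes.

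The 3 cells outside the immature class that nearly lacked the machinery were all from the Fluidigm set. s18930, with the clade A receptor or111-11 at 55.5 CPM, and s20534, without an OR, had none of the 7 genes detected. s20565, with the clade B receptor or115-5 at 1036 CPM, had only ano2, at 50.9 CPM. Other genes also differed in s18930 and s20534. The 2 lists that show it were chosen after these values were seen, so the contrast is not independent of the choice. In a list of 13 DNA replication genes, chosen after the values were seen, s18930 had 7 detected with a sum of 10912 CPM and s20534 had 11 with 17375 CPM. Their pcna levels, the sliding clamp of DNA polymerase, were 4498 and 8008 CPM. The other 39 cells outside the immature class had at most 2 of the 13 genes and at most 3834 CPM. Of 8 general neuronal genes, also listed afterwards, s18930 had 1 detected and s20534 none, with sums of 453 and 2.14 CPM. The median over the other 39 cells was 6165 CPM, but s23560 of clade C had only 62.4 CPM and nevertheless had 5 of the 7 transduction genes. s20565 had 1 of the 13 replication genes, with a sum of 51.3 CPM, and 5 of the 8 neuronal genes. Of 10 genes listed beforehand for immature OSNs, it had 3 detected, although gap43 and gng8 were at 0 CPM. Its tubb5 (1276 CPM) and stmn2a (1005 CPM) exceeded the highest levels in the other 39 cells, 192 and 802 CPM. gnrh2, a gonadotropin-releasing hormone gene singled out after its values were seen, was at 7820 CPM in s20565. It was at most 2.87 CPM in the other 39 cells, a contrast that the choice of the gene had fixed. The part of these features in the lack of transduction genes was not tested. Without the 3 cells, 34 of 39 had at least 5 of the 7 genes, and the median of gnal was 414 CPM in cells without an OR and 1103 CPM in OR cells. None of the 7 was called without them in the 3 comparisons that follow.

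**Figure D4:**
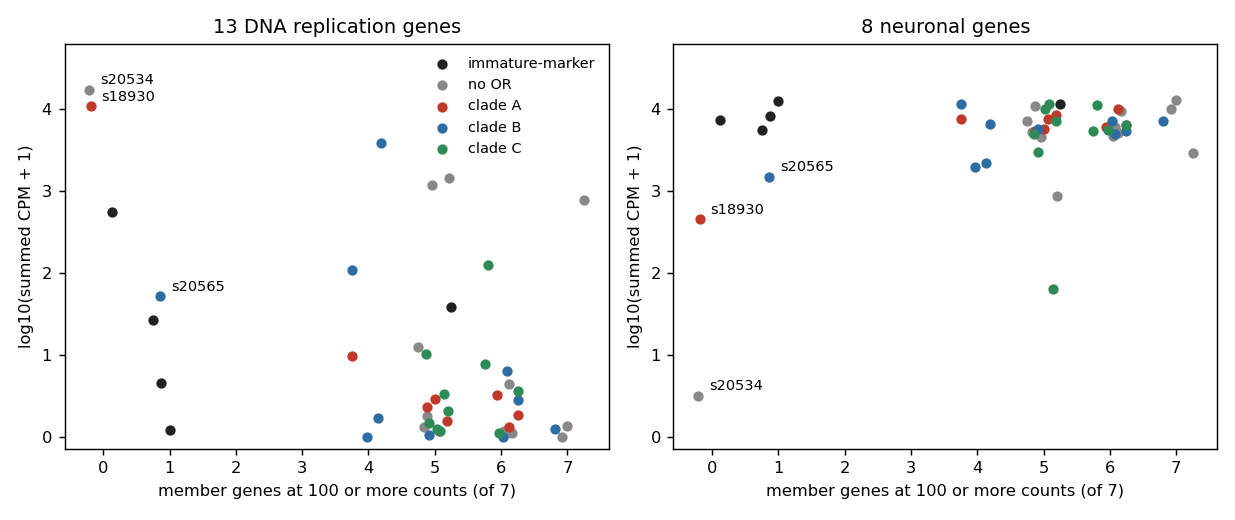
Summed level, as log10(summed CPM + 1), of 13 DNA replication genes (left) and 8 neuronal genes (right) against the number of the 7 transduction genes detected, 1 point per cell, coloured by class and spread sideways within each number. s18930 and s20534 lie highest on the left, at 10912 and 17375 CPM, and s20534 lies lowest on the right, at 2.14 CPM. Both lists were chosen after the values were seen.

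For tests, counts were summed per class and spike-in set, giving 2 sums per class, and compared with edgeR's quasi-likelihood test. All 7 genes had negative log2 fold changes in immature cells relative to OR cells. They were -4.81 ± 3.21 (SE) for gnal, -4.79 ± 3.16 for gng13b, -9.35 ± 5.36 for adcy3b, -9.11 ± 4.38 for CNGA2_(1_of_2), -3.45 ± 3.94 for cnga4, -4.85 ± 4.42 for ano2 and -6.13 ± 3.71 for ompb. Their median of -4.85 compared with -1.65 over all 7886 genes tested. None was called, with edgeR adjusted p between 0.618 and 0.807, and the percentage called over all genes was 0, that is, 0 of 7886 genes. At an unadjusted p below 0.05, 173 genes (2.19%) passed, among them CNGA2_(1_of_2) with p = 0.0374. DESeq2 called 1232 of the 7886 genes, and limma called 0. Of the 7 genes, only adcy3b was among the DESeq2 calls, at -6.98 (DESeq2 adjusted p = 0.0447). Within the Fluidigm set, which held 1 immature cell, and within the ERCC set all 7 differences had the same negative sign. With that Fluidigm cell as the only immature sum, however, the median over all genes was -7.70, below the -6.43 of the 7. A negative sign there is therefore not particular to the 7 genes. With the ERCC sum as the only immature sum, the medians were -1.60 over all genes and -3.95 for the 7.

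The immature class was itself mixed in the markers of other cells. s23573, the immature cell with 5 of the 7 genes, had gng8 at 0.0506 CPM and gap43 at 219.7 CPM. gnrh3, the hormone gene of terminal nerve cells, was at 2680 CPM in s23545 and 239 CPM in s23543, against at most 3.47 CPM in the 42 other cells. trpc2b, the channel gene that defines microvillous OSNs, was at 172 CPM in s23569 and at most 1.62 CPM in the other 4. trpc2b was also detected in 2 OR cells. It was at 47.7 CPM in s20565, the clade B cell in which only ano2 of the 7 genes was detected. The other cell, at 43.4 CPM, was among the 39 cells with at least 4 of the 7 genes. Summed levels of 4 microvillous genes ran from 1.78 to 3639 CPM in immature cells, from 0.207 to 2866 CPM in cells without an OR and from 0.122 to 5149 CPM in OR cells. s23545, s23543 and s23569 had 1, 1 and 0 of the transduction genes. s20535, with gnrh3 and trpc2b at 0.0575 CPM each, also had only 1. s23573 had 3 of the 4 microvillous genes detected, the most of the immature cells, with gnaia at 982 CPM. The part of these markers in the difference was not tested.

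Cells without an OR were compared with OR cells in the same fit, so both comparisons share the sums of OR cells. The log2 fold changes were small beside their errors, at -0.32 ± 2.73 (SE) for gnal, -0.19 ± 2.70 for gng13b, -1.68 ± 3.83 for adcy3b, -0.62 ± 3.09 for CNGA2_(1_of_2), -0.68 ± 3.59 for cnga4, -0.45 ± 3.77 for ano2 and 0.11 ± 2.97 for ompb. Their median of -0.45 lay near the -0.55 of all genes. None was called by edgeR (adjusted p = 1 for each), as for 0 of all 7886 genes (0%), with 80 genes (1.01%) at an unadjusted p below 0.05. DESeq2 called 517 genes and limma 0, and none of the 7 was among them. Size factors in place of TMM moved the median of all genes to 0.56 and turned the direction of gng13b, gnal, CNGA2_(1_of_2), cnga4 and ano2, so that no direction is given for them. With 2 sums per class and SEs of 2.70 to 3.83 log2 units, even very large differences either way could go undetected. In the same fit, adcy3b at -9.35 in immature cells against OR cells was not called.

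Most cells of each clade held the G protein genes. gnal was detected in 8 of 9 clade A, 9 of 10 clade B and 9 of 10 clade C cells, with median levels of 1769, 717 and 1305 CPM. Median levels of gng13b in clades A, B and C were 1600, 504 and 2123 CPM, and those of ompb were 887, 362 and 717 CPM. The order of the clades differed between the spike-in sets for gng13b and ompb but not for gnal. For gng13b the medians in clades A, B and C were 1600, 374 and 230 CPM in the Fluidigm set but 1650, 1756 and 4423 CPM in the ERCC set. For ompb they were 887, 915 and 1662 CPM in the Fluidigm set and 974, 326 and 582 CPM in the ERCC set. For gnal they were 2191, 184 and 1103 CPM in the Fluidigm set and 1682, 972 and 1507 CPM in the ERCC set. All 10 clade C cells had gng13b, ompb and cnga4 detected. cnga4 covered a narrow range in clade C, between 18.1 and 139 CPM, whereas 6 of 9 clade A cells and 2 of 10 clade B cells lay above every clade C cell, and clades A, B and C had medians of 241, 24.6 and 35.6 CPM. CNGA2_(1_of_2) was detected in 4, 6 and 5 cells, ano2 in 5, 4 and 6, and adcy3b in 2, 5 and 4 cells of clades A, B and C. In clade C, CNGA2_(1_of_2) was found in 3 of 3 Fluidigm and 2 of 7 ERCC cells. None of the 7 genes was called for any difference among clades, with edgeR adjusted p from 0.917 upward. The 2 genes called of 5623 (0.0356%) were calb2a, encoding a calcium-binding protein, with adjusted p = 0.00152, and the clade C receptor or129-1 with adjusted p = 0.00278. At an unadjusted p below 0.05 there were 179 genes (3.18%), none of the 7 among them. DESeq2 called 176 genes and limma 0. Leaving out either clade A sum left 0 genes called.

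Among the 29 OR cells, the level of the leading OR had a Spearman's rho of 0.41 with ompb and 0.28 with gnal, and between 0.01 and 0.16 with the other 5 genes. These are descriptions over cells of 2 spike-in sets.

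All 7 genes reached 100 counts in each bulk library, except ano2 (73 counts) and adcy3b (23 counts) in library 1. gnal was at 448, 113.7 and 147 CPM in libraries 1, 2 and 3 and gng13b at 287, 305 and 808 CPM. CNGA2_(1_of_2) was at 1750, 614 and 410 CPM, a mean of 925 ± 722 CPM (SD, n = 3), and cnga4 at 474, 394 and 210 CPM. CNGA2_(1_of_2), under 100 counts in 18 of the 42 cells, was thus present in each pool. ompb was at 391.8, 158 and 168 CPM, and ano2 at 27.5, 69.0 and 47.9 CPM. adcy3b was at 8.67, 60.6 and 28.01 CPM, the first from 23 counts. In a pool, fewer cells with a gene and less RNA per cell cannot be told apart. The bulk libraries also held gap43 at 14.3 to 198 CPM and gng8 at 32.1 to 277 CPM. Both were below 10 CPM in every OR cell, but the class rule had kept out cells at 20 CPM or more. The pools had no such rule. They also held markers listed for other cells. The epithelial gene krt4 was at 1883, 3683 and 1253 CPM, with a median of 0 and a highest level of 2106 CPM in the 42 cells. krt5 was at 198, 374 and 193 CPM, against at most 0.538 CPM there. epcam, at 654, 1321 and 895 CPM, lay around its median of 1069 CPM there. The blood gene hbbe1.1 was at 28.3, 6.56 and 4370 CPM, and gnrh3 at 291, 0.640 and 179 CPM. The part of other cells in the bulk levels was not tested. Mean levels in the 9 clade A cells were 2113 CPM for gnal, 1645 for gng13b, 989 for ompb, 483 for cnga4, 411 for CNGA2_(1_of_2), 253 for ano2 and 49.6 for adcy3b. The last mean rested on s18928, which held 97.1% of its sum, and the clade A median of adcy3b was 0.265 CPM. No gene was tested between bulk and single cells, whose sorts and preparations differed.

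**Figure D5:**
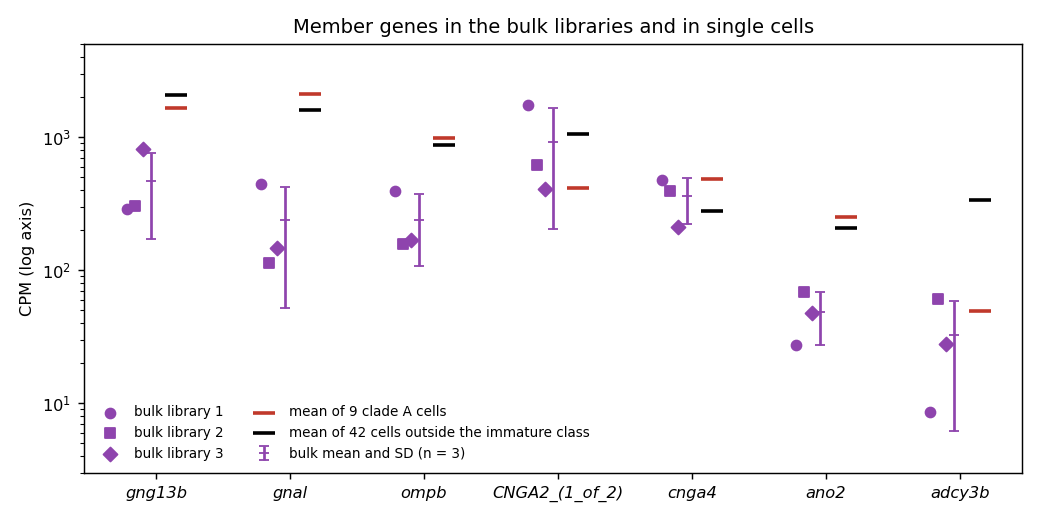
CPM (log axis) of the 7 genes in the 3 bulk libraries, with their mean and SD, beside the mean of the 9 clade A cells and the mean of the 42 cells outside the immature class. gng13b, gnal, ompb and ano2 were lower in each bulk library than in both single-cell means, while the libraries spanned the mean of the 42 cells for CNGA2_(1_of_2) and cnga4.

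Other genes of the pathway came from a fixed list with 29 genes in the tables. Of these, 18 reached 100 counts in at least 3 cells, and none of the 18 was called in either comparison of classes, nor any of the 15 tested among clades (edgeR). The median log2 fold change of the 18 was -2.19 in immature against OR cells and -0.18 in cells without an OR against OR cells. Found in 21 or more of the 42 cells were gnb1a and gnb1b, both encoding the G protein beta subunit, in 39 each, the plasma membrane calcium pump genes atp2b1a and atp2b1b in 35 and 24, and reep2, of a family named for receptor transport, in 23. Unlike the 7 genes, gnb1b was detected in all 5 immature cells, at 371 to 3518 CPM. Of the paralogues other than ompa, gnal2 was detected in 3 OR cells and gng13a in none. ANO2_(2_of_3) was detected in 2 OR cells, with a highest level of 141 CPM, and ANO2_(1_of_3) in none of the 42 cells. The CNGB1 subunit was thinly covered, with cngb1a in 1 and CNGB1_(1_of_2) in 3 of the 42 cells. PDE1C, a phosphodiesterase gene singled out after its values were seen, was detected in 1 of 13 cells without an OR and 14 of 29 OR cells, with edgeR adjusted p = 1.

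The genes whose levels were most like each member over the 42 cells were found by Spearman's rho among 7885 other genes. For gng13b they were dscama, a cell adhesion gene (0.63), and ompa (0.60). They were prdx5 (0.62) and rrm2b (0.55) for gnal, and ndfip1 (0.60) and lyrm4 (0.57) for ompb. CNGA2_(1_of_2) was most like wdr44 (0.57) and USMG5 (0.54), and cnga4 most like tmem184ba (0.51) and map1b (0.51). ano2 had gng3 (0.59), encoding another G protein gamma subunit, and taf6l (0.57), and adcy3b had cabp1a (0.53) and nim1k (0.53). In the 29 ERCC cells alone, cabp1a kept the first rank for adcy3b and prdx5 the second for gnal, and no other of these 14 genes stayed among the first 5. Each is among the highest of 7885 values, and no member was among the nearest genes of another. Detection of the 14 genes ranged from 4 of the 42 cells (wdr44 and cabp1a) to 30 (ndfip1 and map1b). taf6l was detected in 6 and rrm2b in 8. For genes detected in few cells, these ranks mostly order values under 100 counts, which were not read as expression.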

How the data were processed

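Both tables hold raw read counts per gene. Per the study's methods and the submitters' processing notes (CASAVA 1.8.2, STAR, HTSeq), the authors aligned the reads to GRCz10 and deposited the counts without normalization. The methods name VERSE for counting. Reads carry no molecular identifiers, so precision refers to counting error only. Columns were matched to samples by name, and 0 per-sample columns were left unused.

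Cell classes were set from gap43, gng8 and the OR genes, since the labels give none. Counts were scaled to the total of each library (CPM). Raw counts were summed per class and spike-in set, filtered at 100 counts in 3 cells and tested in R 4.3.3 by the quasi-likelihood method of edgeR 4.0.16, with TMM scaling and p-values adjusted by Benjamini-Hochberg over all genes. SE is the log2 fold change over the square root of F. DESeq2 1.42.0 and limma 3.58.1 on log2(CPM + 1) were alternatives, as were size factors, other filters, a block, leaving out sums and an OR level of 100 CPM. With 2 sums per class, p-values measure only the spread between these sums, which differ in spike-in set and in the cells they hold.

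The spike-in set is taken to mark a shared run, so it pairs the sums. Deviations of sums of the same set correlated at 0.123 to 0.250 between maturity classes and 0.0881 to 0.122 between clades, and the block changed no call on the 7 genes.

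The genes and lists were chosen with earlier results of these data known. Named are the 7 genes, pathway paralogues, pathway genes detected in 21 or more of the 42 cells and the 2 genes most like each member. Lists of DNA replication and neuronal genes, and gnrh2, were added after seeing the data. Highest sums of the other marker lists follow for immature cells, cells without an OR and OR cells, in that order. For the 10 immature OSN genes they were 8414, 3305 and 2619 CPM, with medians of 3165, 596 and 851 CPM. The lowest immature sum, 400 CPM, was of s20535, with only 1 of the 10 genes, gap43, detected. s23543 and s23569 had 5, and s23545 and s23573 had 8. The most in a cell outside the immature class was 5. The other highest sums were 1073, 2392 and 4167 CPM (4 progenitor genes), and 3127, 1264 and 5328 CPM (3 crypt neuron genes). They were 22.8, 611 and 848 CPM (4 blood genes), and 9124, 2721 and 10418 CPM (4 epithelial genes). For 4 glial genes they were 0.0632, 0.165 and 14.6 CPM, and for 2 lens genes 0, 0 and 12.6 CPM.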

Additional observations from a re-analysis of the deposited data

Results flagged for a closer look

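For the 7 genes in the immature class and the 3 clades, 28 sets of values on the log10(CPM + 1) scale were checked. In 9 of them a single cell lay far from the others. The limit gives about 1 in 20 by chance for normally distributed values. Many of these values lie near 0 and the sets share cells, so the 9 were not judged against that rate. The 13 cells without an OR were too many for this check and were not included. Among immature cells, s23573 stood above the rest in gng13b (403 CPM) and ano2 (55.8 CPM), and s23543 in adcy3b, at only 2.98 CPM. In clade A, s18930 lay far below the others in gng13b (0.243 CPM), gnal (0.973 CPM) and ompb (1.38 CPM), and s18928 far above them in adcy3b (433 CPM). gnal was far below the other cells in s20565 of clade B (0.709 CPM) and s20595 of clade C (0.832 CPM).

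For cells without an OR against OR cells, 5 genes had opposite signs in the 2 spike-in sets. The log2 differences of summed CPM + 1 in the Fluidigm and ERCC sets were -4.10 and 0.16 for gng13b, -1.37 and 0.52 for ompb, -7.49 and 0.46 for CNGA2_(1_of_2), -2.29 and 0.028 for cnga4, and -7.48 and 1.56 for ano2. The Fluidigm sum without an OR held 2 cells, 1 of them s20534. Whether the sets differ was not tested.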

How the results depend on the processing

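In immature against OR cells, all 7 genes kept a negative log2 fold change under each of 14 alternatives. Only adcy3b under DESeq2 passed the threshold (-6.98), in a setting that called 1232 of 7886 genes. Size factors moved the median of all genes to -0.10 and that of the 7 to -2.74. Leaving out the ERCC sum of immature cells put the median of the 7, -6.43, above that of all genes, -7.70. In cells without an OR against OR cells, 21 values turned sign. With size factors and with DESeq2 alike they were 0.76 for gng13b, 2.65 for gnal, 0.087 for CNGA2_(1_of_2), 2.25 for cnga4 and 0.33 for ano2. ompb was -0.41 with limma, -0.054 with no filter and -0.46 at an OR level of 100 CPM. Leaving out 1 sum gave -3.76 to 0.75 for gng13b, -0.19 to 0.48 for ompb, -6.64 to 0.37 for CNGA2_(1_of_2), -1.14 to 0.00404 for cnga4 and -6.95 to 0.76 for ano2. The cause was not tested.

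Genes called by DESeq2 numbered 1232 (immature), 517 (no OR) and 176 (clades). For the clades, limma gave 0, size factors 1, no filter 8 and a filter of 10 counts 15. Leaving out 1 sum gave 0 to 1, 0 to 1 and 0 to 2 genes. The replicate block gave 0, 0 and 3 genes.

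Detected at 1 count, all 7 genes were found in 85.7% of the 42 cells and at least 5 in 100%, with a median of 7. At 10 counts these shares were 26.2% and 95.2%. In the Fluidigm set alone 61.5% had at least 5. All 28 bulk values under other settings stayed within the spread between libraries.

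Limits are the 2 sums per class, the Fluidigm immature sum of 1 cell, and class rules taken from the same cells.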
